A study of Mus musculus with 3 samples.

Results

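The AP-1 and Egr immediate early genes are 10 listed mouse genes, out of 21887 protein-coding genes in the annotation used. They are the Fos family (Fos, Fosb, Fosl1, Fosl2), the Jun family (Jun, Junb, Jund), the related factor Atf3, and the zinc finger genes Egr1 and Egr2. All open chromatin peaks that touched one of these genes, or the 20000 bp on either side of it, were taken. Peaks of the 3 libraries that overlapped by at least 1 bp were merged into one site, which gave 89 member sites from 175 peaks, out of 182865 sites from 273342 peaks in the whole data set.

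Open chromatin was measured by ATAC-seq, in which a transposase cuts and tags accessible DNA, in mouse oligodendrocyte progenitor cells and their early progeny. The 3 groups were Seh1cKO cells after 1 day of triiodothyronine (T3, 60 nM), wild type control cells after the same day of T3, and wild type control progenitors, whose title ends in the letters DO, read here as day 0. All cells came from C57BL/6 pups of postnatal day 4 to 7, were immunopanned from cortex and grown with PDGF-AA, CNTF, bFGF and NT3, and 50000 cells were used per library. For differentiation T3 was added and the factors other than CNTF were taken away, so a day 1 against progenitor difference combines the hormone with the loss of 3 growth factors. Seh1cKO denotes a conditional knockout of Seh1, a nuclear pore protein. The Cre driver, the deleted part of the gene and the number of animals pooled are not given in the sources used here.

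Immediate early genes are switched on within minutes of a growth factor, hormone or stress signal, without new protein synthesis, and many of them keep open promoters before the signal arrives. Fos proteins pair with Jun proteins to form AP-1, a dimer that binds the sequence TGANTCA, while Egr proteins bind GC-rich sites through zinc fingers. Serum response factor at CArG boxes and CREB at cAMP response elements are the classical activators of these promoters. In the nervous system Egr2, also called Krox20, is best known as the master regulator of myelination in Schwann cells.

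Each group had 1 library, so no difference had a replicate check and no p-value was computed. The libraries held 10845533 fragments in Seh1cKO cells at day 1, 18260883 in control cells at day 1 and 23403600 in control progenitors, with 46113, 118441 and 108788 called peaks in that order. The value given for a site is the pileup, the number of fragments stacked at the summit of its highest peak, per 1000000 fragments of the library (FPM). Intervals are exact 95% intervals for counting error only and leave out the spread between libraries. Duplicate fragments were kept and are not independent molecules, so the intervals may be too narrow even for counting error. Over all sites called in both libraries of a comparison, the median ratio was 0.908 (log2 -0.14) for Seh1cKO day 1 over control day 1 and 1.34 (log2 0.42) for control day 1 over progenitors, and ratios of members are read against these medians. At sites near a gene end the medians were 0.995 and 1.38, and at other sites 0.842 and 1.3, a split by class made after the values were seen. In bulk material, a site open in fewer cells and a site less open in each cell cannot be told apart.

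The cells were checked against defining markers by a peak within 1000 bp of either annotated end of a gene, called a gene-end peak below. Of all protein-coding genes 56.2% had one in Seh1cKO cells at day 1, 63.2% in control cells at day 1 and 62.4% in progenitors. The part of the shorter Seh1cKO peak list in the counts below was not tested. Of 6 progenitor markers 5 had a gene-end peak in each library, with none at Cspg4. Of 6 oligodendrocyte markers 2 had one in Seh1cKO cells at day 1, 5 in control cells at day 1 and 3 in progenitors, with none at Mag. Astrocyte markers had gene-end peaks at 4 of 5 genes in each library, and neuron markers at 3, 3 and 5 of 5 genes in that order of libraries. Microglia markers had them at 2 of 5 genes in Seh1cKO cells at day 1, 1 in control cells at day 1 and 1 in progenitors, with none at Cx3cr1, Csf1r and Aif1, and endothelial markers at 1, 2 and 2 of 5, with none at Pecam1 and Cdh5. An open gene end does not show expression, and the part of other cell types in the results was not tested.

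The upstream sequences of members are shown because the open sites of most members lay on them, and because they were searched for signal response elements. RefSeq promoter entries of build GRCm38.p6 matched 8 of the 10 members; Fosl1 and Egr1 are named only. The 250 bases just upstream of the transcription start are printed 5′ to 3′ on the strand of the gene for 5 members with a called peak over them and for Jund, which had none. Capitals mark matches, on either strand, to the cAMP response element core TGACG, which reads CGTCA on the opposite strand, the EGR site GCGNGGGCG, the CArG box and the Jun element TGACATCA, the last of which was added after the sequences had been seen.
Fos (chr12:85473640-85473889, plus strand): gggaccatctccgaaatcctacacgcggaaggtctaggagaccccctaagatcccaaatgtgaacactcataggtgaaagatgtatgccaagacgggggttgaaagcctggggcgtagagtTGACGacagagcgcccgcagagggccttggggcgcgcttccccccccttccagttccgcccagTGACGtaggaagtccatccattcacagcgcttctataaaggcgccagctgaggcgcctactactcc
Fosb (chr7:19310046-19310295, minus strand): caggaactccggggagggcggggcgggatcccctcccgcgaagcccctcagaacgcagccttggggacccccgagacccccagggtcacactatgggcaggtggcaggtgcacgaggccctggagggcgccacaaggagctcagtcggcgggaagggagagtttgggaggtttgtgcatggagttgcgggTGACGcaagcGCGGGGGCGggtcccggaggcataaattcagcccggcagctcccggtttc
Jun (chr4:95052223-95052472, minus strand): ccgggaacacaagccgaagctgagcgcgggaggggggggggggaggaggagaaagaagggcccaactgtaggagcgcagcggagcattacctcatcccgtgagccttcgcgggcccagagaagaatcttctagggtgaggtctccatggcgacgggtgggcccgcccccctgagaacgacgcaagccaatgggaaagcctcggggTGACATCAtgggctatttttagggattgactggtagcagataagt
Jund (chr8:70697489-70697738, plus strand): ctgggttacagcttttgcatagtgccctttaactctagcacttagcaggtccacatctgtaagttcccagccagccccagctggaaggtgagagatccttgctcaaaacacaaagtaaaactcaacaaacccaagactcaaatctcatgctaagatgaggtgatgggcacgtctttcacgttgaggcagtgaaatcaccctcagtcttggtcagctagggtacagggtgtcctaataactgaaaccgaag
Egr2 (chr10:67537619-67537868, plus strand): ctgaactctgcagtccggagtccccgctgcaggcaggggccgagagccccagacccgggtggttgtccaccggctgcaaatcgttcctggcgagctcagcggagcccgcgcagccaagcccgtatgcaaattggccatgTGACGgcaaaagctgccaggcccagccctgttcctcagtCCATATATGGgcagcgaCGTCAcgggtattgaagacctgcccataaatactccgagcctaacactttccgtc
Atf3 (chr1:191183334-191183583, minus strand): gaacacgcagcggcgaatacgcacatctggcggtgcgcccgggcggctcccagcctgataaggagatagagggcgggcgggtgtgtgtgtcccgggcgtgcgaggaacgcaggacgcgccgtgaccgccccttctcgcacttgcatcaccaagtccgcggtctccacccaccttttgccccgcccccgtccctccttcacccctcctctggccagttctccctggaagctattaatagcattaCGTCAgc

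The Fos sequence held the core TGACG at 129 and at 66 bases before the start and the letters TATAAA at 33 bases. In Fosb the core lay 60 bases and an EGR site 50 bases before the start. Egr2 held a CArG box at 72 bases with cores at 111 and 55 bases, Jun held its element at 45 bases, and Atf3 held a core at 7 bases, on the other strand. Among the members not printed, Fosl2 had an EGR site at 79 bases and Junb a core at 106 bases. No match to any motif searched lay in the 250 bases of Jund, whose GC content was 47.6%, against a median of 52.4% over all promoters. The other member windows had 58.4% to 68.8%. The motif shares below are over all promoter windows and were not matched for GC content.

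For comparison, of 32851 promoter windows of the same length 17.8% held the core, 1.47% a CArG box, 4.7% an EGR site and 2.93% the Jun element. The full cAMP response element TGACGTCA, which contains the core, was in 1.55% of windows and the AP-1 site TGANTCA in 6.75%, and neither was in any of the 8 member windows. The letters TATAAA were in 12.4% of windows and here at Fos alone, the GC box GGGCGG in 32.7% and here at 5 members (Fos, Fosb, Fosl2, Jun and Atf3), and the ETS core CCGGAA in 12% and here at none. A match describes letters in the window and not a bound site.

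Called peaks covered all 250 of these bases in every library at Fos, Jun, Egr2 and Atf3. At Fosb 250 bases were covered in Seh1cKO cells at day 1, 250 in control cells at day 1 and 229 in progenitors, and at Junb 185, 161 and 107 in the same order. The Fosl2 site lay farther upstream and covered 21, 0 and 53 of the 250 bases, and at Jund no base was covered in any library.

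A gene-end peak was called at 9 of the 10 members in each library, where 56.2% of all protein-coding genes had one in Seh1cKO cells at day 1, 63.2% in control cells at day 1 and 62.4% in progenitors. The exception was Egr2, whose annotated gene extends upstream of the middle one of its 5 RefSeq starts, used here as its start. Its strongest site lay over that start and was called in all 3 libraries, so every member had a site within 1000 bp of its start, or for Fosl1 and Egr1 of the lower-coordinate end of the gene. The strongest such site of each member is called its start site and described first; at Fosl2 it ended before the start and at Jund it began past it.

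**Figure D1:**
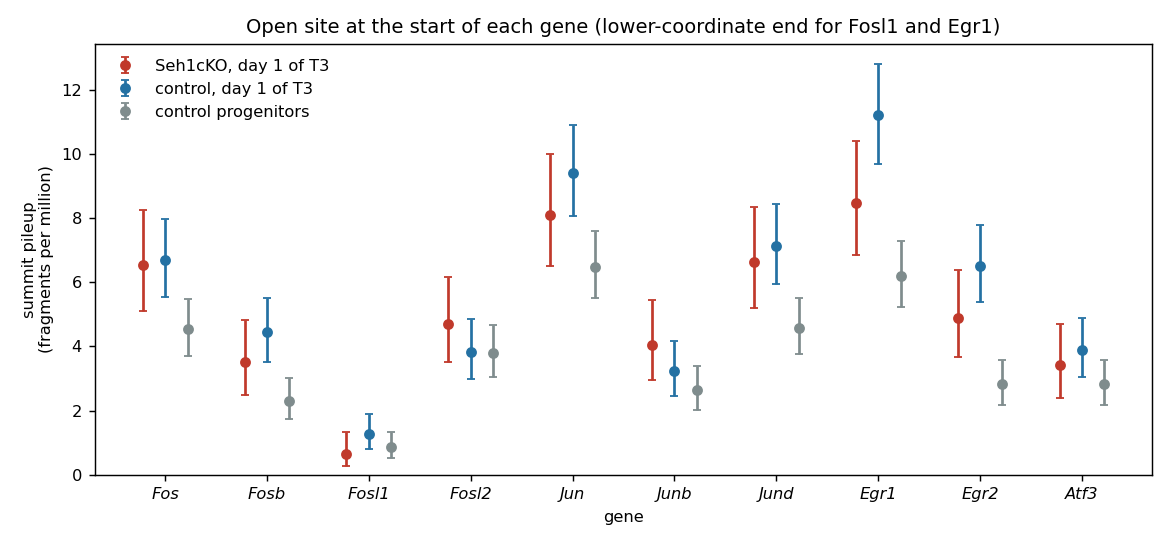
Summit pileup in FPM at the start site of each member, with exact 95% intervals for counting error. Red points are Seh1cKO cells at day 1, blue points control cells at day 1 and grey points control progenitors, with 1 library each; Egr1, at 8.48, 11.2 and 6.20 in that order, and Jun lie highest and Fosl1 lowest.

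Fos, the inducible partner of Jun in the classical AP-1 dimer, had a start site at chr12:85473426-85474354 in mm10. Its pileup was 6.55 FPM in Seh1cKO cells at day 1, 6.68 in control cells at day 1 and 4.53 in progenitors. The day 1 libraries thus differed by less than counting error, with a ratio of Seh1cKO over control of 0.98 (0.721 to 1.32). Control day 1 over progenitors was 1.48 (1.13 to 1.93), an interval that holds the all-site median of 1.34.

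Fosb, a Fos relative with a long-lived truncated form in stimulated brain, had 3.50 FPM at its start in Seh1cKO cells, 4.44 in control cells at day 1 and 2.31 in progenitors. Control day 1 over progenitors was 1.92 (1.35 to 2.77), which lies above the all-site median of 1.34 but holds 1.38, the median of sites near a gene end, and Seh1cKO over control was 0.79 (0.523 to 1.18). Fosl1, which encodes FRA-1, had the weakest start site of the set, at 0.645, 1.26 and 0.855 FPM in the same order of libraries. With 7, 23 and 20 fragments behind these values, its Seh1cKO over control ratio of 0.512 had an interval of 0.186 to 1.23. Fosl2, which encodes FRA-2 and is a more constitutive member of the family, was the one gene whose start site was nearly equal in the control libraries, with its summit 662 bp upstream. Its values were 4.70 FPM in Seh1cKO cells, 3.83 in control cells at day 1 and 3.80 in progenitors, a control day 1 over progenitor ratio of 1.01 (0.726 to 1.39).

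Jun, the founding AP-1 subunit, had the highest start site in progenitors and the second highest at day 1, at chr4:95051909-95053710. It stood at 8.11 FPM in Seh1cKO cells, 9.42 in control cells at day 1 and 6.49 in progenitors. Seh1cKO over control was 0.861 (0.659 to 1.12), an interval that holds the all-site median. Junb, an inducible Jun protein that can restrain Jun activity, had 4.06 FPM in Seh1cKO cells, 3.23 in control cells at day 1 and 2.65 in progenitors. Junb and Fosl2 were the 2 members with a higher start site in FPM in Seh1cKO than in control cells, at 1.26 (0.83 to 1.89) for Junb and 1.23 (0.838 to 1.79) for Fosl2, and both intervals hold 1.

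Jund, the Jun protein that is present in most resting cells, had its summit 991 bp past the annotated start, in a site that began 659 bp past it. Pileup there was 6.64 FPM in Seh1cKO cells, 7.12 in control cells at day 1 and 4.57 in progenitors. Atf3, a stress-induced factor that pairs with Jun proteins and often represses, had 3.41 FPM in Seh1cKO cells, 3.89 in control cells at day 1 and 2.82 in progenitors. For Jund and Atf3 the Seh1cKO over control ratios of 0.933 (0.689 to 1.25) and 0.877 (0.573 to 1.32) hold the all-site median.

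The Egr genes showed 2 of the 3 largest stage ratios. Egr1, the prototype of signal-induced zinc finger factors, had 8.48 FPM in Seh1cKO cells, 11.2 in control cells at day 1 and 6.20 in progenitors at chr18:34859829-34861407. The control day 1 value was the highest of any member site in any library. Control day 1 over progenitors was 1.80 (1.45 to 2.25), and Seh1cKO over control was 0.759 (0.587 to 0.976). That interval holds the all-site median of 0.908 but lies wholly below 0.995, the median of sites near a gene end, of which this is one.

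Egr2 had 4.89 FPM at its start in Seh1cKO cells, 6.52 in control cells at day 1 and 2.82 in progenitors, at chr10:67536944-67538135. Its control day 1 over progenitor ratio of 2.31 (1.70 to 3.17) was the largest of the 10 start sites. The Seh1cKO value lay between those of the control libraries, as it also did at the start sites of Fos, Fosb, Jun, Jund, Egr1 and Atf3. At Egr2 Seh1cKO over control was 0.75 (0.532 to 1.04). Across the 10 start sites the median log2 ratio was 0.56 for control day 1 over progenitors, with 8 above the all-site median, and -0.20 for Seh1cKO over control, with 4 above it. Against the median of their own class, near a gene end or elsewhere, 7 and 2 of the 10 were above.

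Within a site the summit could shift between libraries. The distance between the farthest summits of the 3 libraries was 45 bp at the Jun start, 154 bp at Fos, 180 bp at Egr2 and 340 bp at Fosl2. At Fos the summit lay 105 bp before the start in Seh1cKO cells, 215 bp in control cells at day 1 and 259 bp in progenitors. At Fosb the order was the same, with 75, 203 and 265 bp. A ratio at a merged site therefore compares the highest points of the site, not one base.

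Of the 89 member sites 38 were called in Seh1cKO cells at day 1, 69 in control cells at day 1 and 61 in progenitors. All 3 libraries called 34 of them, or 38.2%, against 17.9% of all sites. By position, 13 of 20 sites at an end of the member gene, 2 of 9 within it and 19 of 60 distal sites were called in all libraries. Among sites near any gene end the share was 59.4% (19 of 32) for members and 55.9% for all sites, and among other sites 26.3% (15 of 57) and 13.2%. Seh1cKO cells alone called 1 site (3.14% of all sites were theirs alone), control cells at day 1 alone 25 (36.9% of all) and progenitors alone 18 (32.1% of all). Member windows were dense in sites, with a median of 1.76 per 10 kb over the 3 libraries together, against 0.934 over all genes. In these windows 15 sites also lay at the end of another gene, such as Rtn2 next to Fosb, Ccdc85b and Fibp next to Fosl1, Prdx2 next to Junb and Ado next to Egr2, so a site in a window is not thereby a site of the member.

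**Figure D2:**
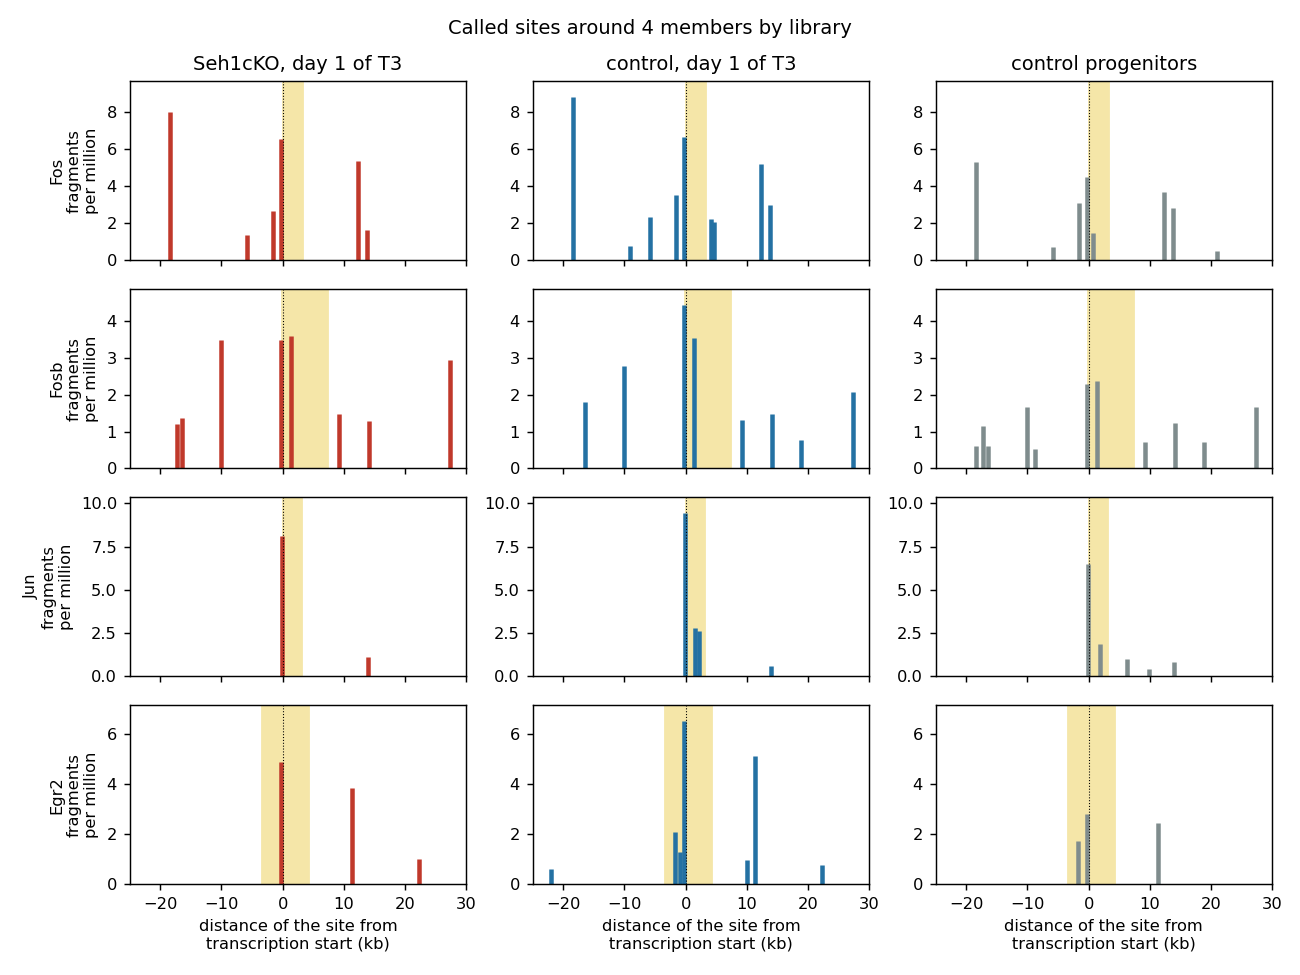
Called sites around Fos, Fosb, Jun and Egr2, drawn as bars at the distance of the summit from the transcription start in kb, with height in FPM. Columns are Seh1cKO cells at day 1, control cells at day 1 and control progenitors, shading is the annotated gene, and the Fos site about 18 kb upstream stands above the start site in each library.

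The strongest site of the Fos window was not at the gene but at chr12:85455053-85455969, with its summit 18456 bp upstream of the start and no other gene end near it. It had 8.02 FPM in Seh1cKO cells, 8.82 in control cells at day 1 and 5.34 in progenitors. Seh1cKO over control was 0.91 (0.693 to 1.19), with the all-site median inside the interval. A second strong Fos site, 12258 bp past the start, had 5.35, 5.20 and 3.67 FPM in the same order.

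Stage ratios varied among sites of the same gene. The Fos site 5761 bp upstream had 1.38 FPM in Seh1cKO cells, 2.35 in control cells at day 1 and 0.726 in progenitors. Its control day 1 over progenitor ratio of 3.24 (1.81 to 6.06) was the largest of the 42 member sites called in both, on 43 against 17 fragments. The Fos site 1554 bp upstream had a ratio of 1.16 (0.814 to 1.64) and the one 13801 bp past the start 1.07 (0.733 to 1.55). At this last site Seh1cKO over control was 0.551 (0.305 to 0.953), from 18 against 55 fragments.

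Fosb had a site 16509 bp upstream with 1.38 FPM in Seh1cKO cells, 1.81 in control cells at day 1 and 0.598 in progenitors. Control day 1 over progenitors was 3.02 (1.57 to 6.11) there, and 1.68 (1.08 to 2.61) at the site 10119 bp upstream. The site inside Fosb, 1335 bp past the start, was about as high as the start site in Seh1cKO cells and progenitors and lower than it in control cells at day 1, with 3.60 FPM in Seh1cKO cells, 3.56 in control cells at day 1 and 2.39 in progenitors.

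Around Egr2 the site 11314 bp past the start, at an end of the neighbouring gene Ado, had a stage ratio close to that of the Egr2 start. It had 3.87 FPM in Seh1cKO cells, 5.15 in control cells at day 1 and 2.44 in progenitors, a control day 1 over progenitor ratio of 2.11 (1.51 to 2.99). The Egr2 site 1721 bp before the start was called in the control libraries only, with 2.08 at day 1 and 1.75 in progenitors, a ratio of 1.19 (0.743 to 1.89). Both ends of Egr1 were open but differed in their ratios. Just past its higher-coordinate end, with the summit 4584 bp from the lower one, a site had 3.23 FPM in Seh1cKO cells, 4.71 in control cells at day 1 and 4.91 in progenitors. There control day 1 over progenitors was 0.958 (0.716 to 1.28), wholly below the all-site median and below the 1.80 of the other end.

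Junb had 3 strong sites besides its start. The site 2140 bp past the start, at the far end of the gene, had 5.07 FPM in Seh1cKO cells, 4.05 in control cells at day 1 and 3.85 in progenitors. The site 12586 bp past the start, inside the gene Rnaseh2a, had 3.78, 4.76 and 3.20 in the same order. The third lay 11765 bp upstream inside the gene Hook2 and had 4.33, 3.12 and 3.29, so that Seh1cKO over control was 1.39 (0.923 to 2.08), wholly above the all-site median of 0.908 and holding 1. Near Jun the distal sites were weak, with at most 1.11 FPM, and the Jun site 13932 bp past the start had 12 fragments in Seh1cKO cells, 11 in control cells at day 1 and 19 in progenitors. Atf3 had 8 sites beyond its start region, each called in a single control library, 4 at day 1 and 4 in progenitors, with 9 to 15 fragments.

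**Figure D3:**
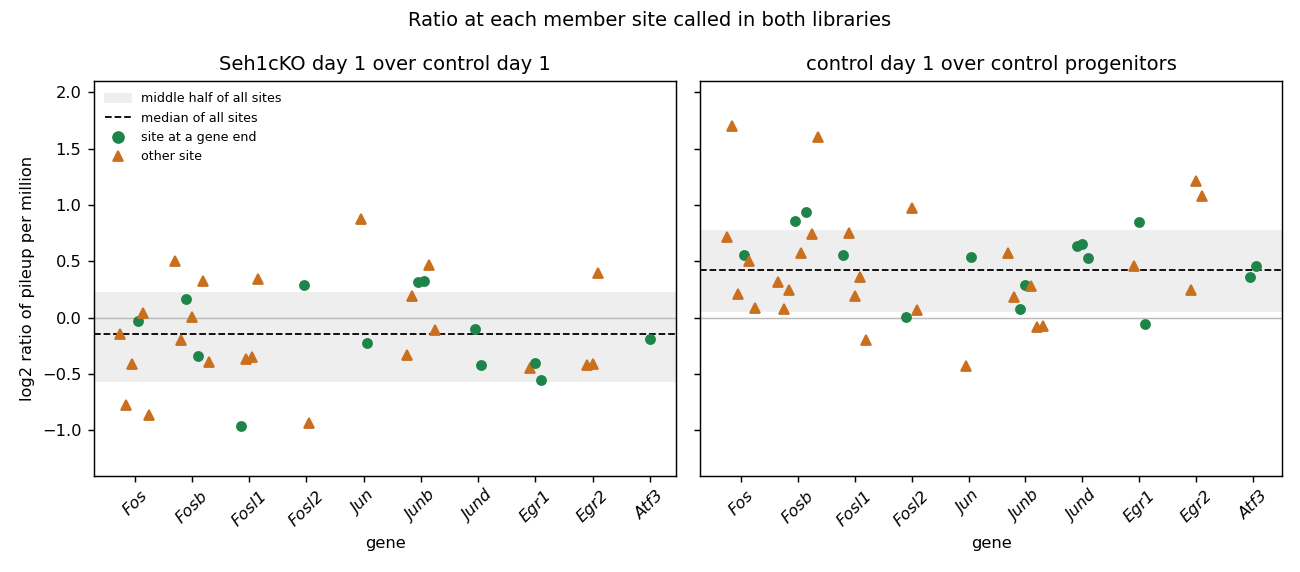
Log2 ratio of pileup in FPM at each member site called in both libraries, by gene, for Seh1cKO day 1 over control day 1 on the left and control day 1 over progenitors on the right. Circles are sites at an end of the member gene and triangles all other sites. Triangles thus include the Egr2 start and sites at the end of another gene alone, such as Ado. The dashed line is the median of all sites (-0.14 left, 0.42 right) and the grey band their quartile range. The triangles at 1.70 and 1.60 on the right are the Fos site 5761 bp and the Fosb site 16509 bp upstream.

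The stage comparison asked which member sites differed after a day of T3. Of 42 sites called in both control libraries 13 were at least 1.5 times higher at day 1, where 37.7% of all sites were, and 0 were at least 1.5 times lower, where 3.75% were. Their median log2 ratio was 0.46, with 22 of 42 above the all-site median of 0.42. By a rule chosen after the values were seen, an interval wholly above the all-site median, 6 sites or 14.3% passed, where 9.74% of all sites did. They were Fos at 5761 bp and Fosb at 16509 bp upstream, the starts of Fosb, Egr1 and Egr2, and the site at Ado. Members and all sites were not matched for fragments in either count. Counting error carries ratios from few fragments past 1.5 times more often, and intervals from many fragments clear a median more often. An interval wholly below the all-site median was found at 1 member site, the far end of Egr1, where 6.98% of all sites had one. Against the median of its own class each of these held except the Fosb start, which left 5 sites above (10.1% of all sites) and 1 below (6.61%). Scaled by the median of each library in place of its fragments, 4 sites were at least 1.5 times higher and 2 lower, where 12.3% and 17.1% of all sites were, and the median log2 ratio was -0.02.

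The genotype comparison asked which member sites differed in Seh1cKO cells at the same day of T3. Both day 1 libraries called 36 member sites. Of these 1, or 2.78%, was at least 1.5 times higher in Seh1cKO cells, where 8.92% of all sites were. At least 1.5 times lower were 4, or 11.1%, where 23.8% of all sites were. Counting error carries ratios from few fragments past 1.5 times more often, and members and all sites were not matched for fragments. Near any gene end 0 of 20 were higher and 1 lower, where 9.15% and 9.78% of all such sites were. Elsewhere 1 of 16 was higher and 3 lower, where 8.8% and 30.5% were. The higher one was the weak Jun site at 13932 bp, with a ratio of 1.84 (0.742 to 4.59). The 4 lower ones were the Fos sites at 13801 bp past and 5761 bp before the start, the Fosl1 start, and the Fosl2 site 24664 bp past its start, which had 10 fragments in Seh1cKO cells against 32 in control cells and a ratio of 0.526 (0.231 to 1.1). No member site had an interval wholly below the all-site median, where 10.3% of all sites did, and 1 had an interval wholly above it, the Hook2 site near Junb, where 5.57% did. Against the median of its own class, the Hook2 site was again above (5.11% of all sites were) and the Egr1 site at the lower-coordinate end was below (9.24% were).

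The median log2 ratio of the 36 sites was -0.19, with 17 above the all-site median of -0.14. At the 20 of them near any gene end the median was -0.19, against -0.01 over all such sites, and 9 of the 20 were above -0.14. Measured as fold enrichment over the surrounding 10 kb, the same 20 had a median of -0.09 against -0.11 over all such sites. Scaled by the library median, 9 of 36 sites were at least 1.5 times higher and 2 lower, where 23.4% and 12.4% of all sites were, and the median log2 ratio was 0.14. The 2 comparisons share the control day 1 library, so a site high there by chance is high in one ratio and low in the other, and the ratios are given side by side with no relation drawn between them.

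Presence followed the strength of a site. Of the 69 member sites called in control cells at day 1, 36 were also called in Seh1cKO cells, or 52.2% (39.8 to 64.4), against 31.1% of all control day 1 sites. Among sites whose −log10 q in control cells reached 5 it was 35 of 44, or 79.5%, against 59.3%, and at 10 or more it was 28 of 29, or 96.6%, against 80% of all. In the other direction 36 of the 38 member sites of Seh1cKO cells were called in control cells at day 1, and the remaining 2 were a Fosb site 17219 bp upstream, also called in progenitors, and a site 11759 bp below Egr1 with 10 fragments. Split by position, the share called again in Seh1cKO cells was 20 of 29 or 69% (49.2 to 84.7) for member sites near any gene end, against 70.9% of all such sites, and 16 of 40 or 40% (24.9 to 56.7) for those elsewhere, against 24.6%. Near a gene end lay 29 of 69 member sites but 16397 of 116149 sites of that library, so the pooled shares mix these classes in unequal parts. Of the same 69 sites 42 were also called in progenitors, or 60.9%, against 38.9% of all.

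**Figure D4:**
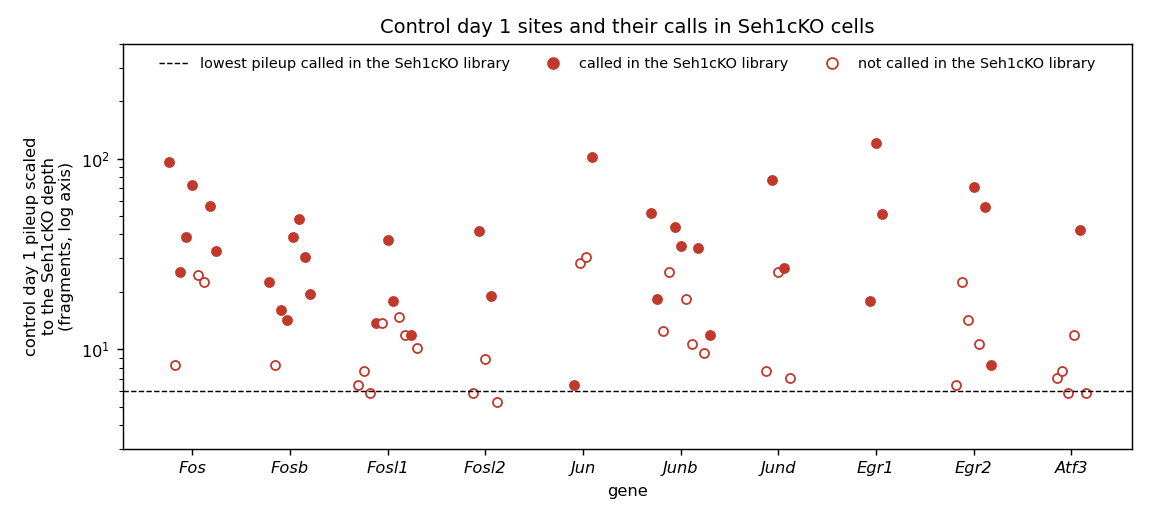
Pileup of each member site called in control cells at day 1, scaled to the depth of the Seh1cKO library, on a log axis in fragments, by gene. Filled circles were called in Seh1cKO cells, with a median of 34.5 fragments, open circles were not, with a median of 10.1, and the dashed line is the lowest pileup called in that library, 6.

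Depth differed, the Seh1cKO library being 59.4% as deep as that of control cells at day 1. Scaled to that depth, the 33 control day 1 sites without a Seh1cKO call would have had 5.3 to 30.3 fragments with a median of 10.1, and 5 of them fell under 6, the lowest pileup called in the Seh1cKO library. The 36 sites with a call would have had 6.5 to 121.2, with a median of 34.5. The strongest without a call were at Jun, 1514 bp and 2153 bp past the start, with 51 and 48 fragments in control cells at day 1 but a fold over their surroundings of only 2.23 and 2.09. For such sites a lack of a call is not shown to be a lack of opening.

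Coverage over 10 kb around the strongest site of each member was computed from pileup and fold enrichment, a measure chosen after the data had been seen. For Fos this is the site 18456 bp upstream and for Fosl1 the site at Ccdc85b. These sites were themselves above the median pileup of gene-end sites. Percentiles ran between 53.3 and 97 for the Seh1cKO library, between 75 and 99.2 for the control library of day 1, and between 66.1 and 98.4 for the progenitor library. At Egr1 this local coverage was 11.3 times the genome mean in Seh1cKO cells, 13.1 times in control cells at day 1 and 10.5 times in progenitors, the 99.9th percentile of gene-end sites in each. Jun had 9.58, 10.7 and 7.19 times in the same order, and Jund 6.55, 7.07 and 4.88 times, while gene-end sites had medians of 2.01, 1.85 and 1.58. All 10 strongest sites were above the gene-end median in each library. They were picked by height and the 10 kb include the peak itself, so this count is not independent of the choice of sites. At the start sites 9 of 10 were above the gene-end median, and Fosl1 was below it, with 1.02 times the genome mean in Seh1cKO cells, 1.21 in control cells at day 1 and 1.08 in progenitors.

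**Figure D5:**
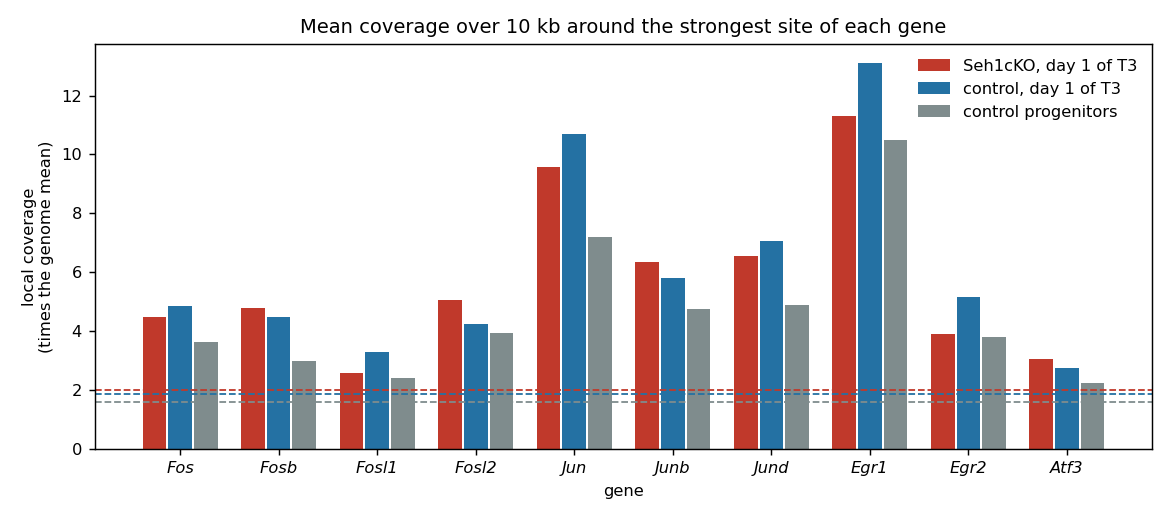
Mean coverage over 10 kb around the strongest site of each member (for Fos the site 18456 bp upstream, for Fosl1 the site at Ccdc85b), in multiples of the genome mean, in Seh1cKO cells at day 1 (red), control cells at day 1 (blue) and control progenitors (grey). Dashed lines are the medians over all gene-end sites of each library (2.01, 1.85 and 1.58), and every bar lies above the line of its library, with Egr1 and Jun the tallest. The member sites were picked by height, and the gene-end sites were not.

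The stage ratios of the members differed with the measure. Ratios of local coverage used only sites whose coverage in both libraries lay above a floor set just over the genome mean. For control day 1 over progenitors this kept 25645 of 45187 sites, and 39 of 42 member sites. The median log2 ratio was 0.43 at these 39, with 28 above the median of 0.28 over all sites kept. The 10 kb around neighbouring sites of one gene overlap, so the 28 of 39 are not independent of each other. Fold enrichment, which divides a summit by its surroundings, was compared without this floor. Its median log2 ratio was -0.02 at 42 member sites against 0.16 over all sites, with 14 above it. For Seh1cKO over control the local coverage had medians of -0.13 at 31 member sites and -0.11 over the 22305 sites above the floor. At the Egr2 start the fold enrichment itself was 9.42 in Seh1cKO cells, 10.43 in control cells at day 1 and 6.20 in progenitors, and at the Fos start it was 7.22, 6.77 and 7.15.

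Related genes were described at their gene ends from lists of AP-1 partners, Egr relatives, other immediate early genes and upstream regulators. For comparison, 56.2% of all protein-coding genes had a gene-end peak in Seh1cKO cells at day 1, 63.2% in control cells at day 1 and 62.4% in progenitors. Gene-end peaks were called in each library at 10 of 12 AP-1 partners, with none at Batf and Batf2, which act mainly in immune cells. All 4 Egr relatives and 19 of 20 other immediate early genes had one in each library, with none at Npas4, which responds to calcium in neurons. Upstream regulators had 11 of 13 in Seh1cKO cells, 12 in control cells at day 1 and 12 in progenitors, with none at Mapk10. The call differed at Elk3 alone, which encodes a partner of serum response factor. It had 0.548 FPM in control cells at day 1 and 0.983 in progenitors without a call in Seh1cKO cells. The lowest pileup called in the Seh1cKO library was 0.553 FPM, above the Elk3 value of control cells at day 1. The part of depth in this missing call was not tested.

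For Seh1cKO over control the median log2 ratios were -0.10 for AP-1 partners, 0.04 for Egr relatives, -0.12 for other immediate early genes and -0.03 for upstream regulators, against -0.01 over all gene-end sites. A ratio of at least 1.5 was found at 9.15% of all gene-end sites and at 0 of 11 upstream regulators. In the other lists 3 genes had one: 1 of 10 AP-1 partners, 1 of 4 Egr relatives and 1 of 19 other immediate early genes. They were Atf4, the effector of the integrated stress response, with 4.98 against 2.68 FPM and a ratio of 1.86, Egr3 at 1.63, and Klf2 at 1.54. Lower by at least 1.5 times were 9.78% of all gene-end sites, 0 of 10 AP-1 partners and 0 of 4 Egr relatives. So was 1 of 11 upstream regulators, Mapk3, which encodes the kinase ERK1, with 1.38 against 3.01 FPM and a ratio of 0.459. Among other immediate early genes 2 of 19 were, Sgk1 at 0.508 and Ccn1 at 0.512. No intervals are given for the genes of these lists.

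For control day 1 over progenitors the medians were 0.34, 0.50, 0.41 and 0.56 in the same order of lists, against 0.46 over all gene-end sites. At least 1.5 times higher at day 1 were 2 of 10 AP-1 partners, 2 of 4 Egr relatives, 7 of 19 other immediate early genes and 6 of 12 upstream regulators, where 38.2% of all gene-end sites were. Lower by as much was Elk3 alone, where 1.57% were. The highest ratios were those of Nr4a2, an orphan nuclear receptor, with 2.57 against 0.897 FPM and a ratio of 2.87, Nab1, a corepressor of Egr proteins, at 2.61, Ccn2 at 2.27 and Mafg at 2.11. The lowest were Elk3 at 0.557, Atf4 at 0.805, Egr3 at 0.807 and Mrtfb at 0.867.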

How the data were processed

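ATAC-seq peak tables of 3 mouse libraries, 1 per group, were used. Per the submitters' processing notes, the tools were Bowtie2, SAMtools and MACS2 and the build was mm10. MACS 2.1.2_dev called peaks library by library without a control, at a q cutoff of 0.05, with duplicates kept and a local background over 10000 bp, per the file headers. The sources used here do not give whether cut positions were shifted for the transposase. The tables deposited by the authors hold for each peak the pileup signal at its summit, a −log10 p-value, a −log10 q-value and a fold enrichment ratio over its surroundings. Both −log10 columns had lost their names and were told apart by the order in which the caller writes them.

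The computation used Python 3.11.15, pandas 2.3.3 and scipy 1.17.1. Pileup was scaled to 1000000 of the fragments counted in the headers. Peaks overlapping by at least 1 bp were merged into sites, and a site took the highest pileup of each library. Gene positions and starts came from RefSeq GRCm38.p6, whose main chromosomes have the mm10 coordinates; distances are from the transcription start, or from the lower-coordinate end for Fosl1 and Egr1, whose strand was not used. Intervals of ratios come from the exact binomial interval of one pileup in the sum of both, and intervals of shares are Clopper-Pearson, at 95%. Local coverage was computed from pileup and fold enrichment, with 1 fragment added by the caller to each. The scripts were checked on simulated data. Sites count as higher or lower at 1.5 times. Named genes were all 10 members, and of the other lists those whose gene-end call differed or was absent throughout. Also named were genes at least 1.5 times higher or lower for Seh1cKO over control. For control day 1 over progenitors the highest and lowest ratios over these lists together were named. The members and lists were chosen with earlier results of these data known. Alternatives varied q, windows, overlap, scale, fold and list length. Seh1cKO progenitors and the other assays of the study were not analysed here. The planned ranking of listed genes by likeness to Fos is not reported here.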

Additional observations from a re-analysis of the deposited data

How the results depend on the processing

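Of 104 alternative values for the members 58 kept their direction and stayed within 1.5 times, 43 moved and 3 reversed. The reversals came with the scale or the measure. When pileup was divided by the library median, the median log2 ratio became 0.14 for Seh1cKO over control (against -0.19). For control day 1 over progenitors it became -0.02 on that scale and -0.02 by fold enrichment (against 0.46). By its construction the scale by library median shifts all ratios of a comparison alike, which fold enrichment does not.

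Sites called in Seh1cKO cells, control cells at day 1 and progenitors (38, 69 and 61) became 31, 44 and 39 at a −log10 q of at least 5, 19, 29 and 30 at 10, 25, 44 and 38 with a flank of 10000 bp, and 65, 120 and 119 with 50000 bp; with lists of equal length, 46113 peaks each, they were 38, 40 and 41. Sites called in a single day 1 library (2 in Seh1cKO cells, 33 in control cells) became 3 and 16 at a −log10 q of 5, 0 and 10 at 10, 4 and 6 with equal lists, 0 and 19 with 10000 bp, 3 and 58 with 50000 bp, and 4 and 35 with an overlap of 50% of the shorter peak. Equal lists drop the weaker control sites by construction.

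Sites at least 1.5 times higher and lower in Seh1cKO cells (1 and 4) became 0 and 1 at a −log10 q of 5, 0 and 0 at 10, 0 and 4 with equal lists, 0 and 3 with 10000 bp, 3 and 7 with 50000 bp, 0 and 4 with the stricter overlap, 9 and 2 over the library median, 0 and 4 by fold enrichment, and 0 and 0 at a fold of 2. Sites higher and lower at day 1 than in progenitors (13 and 0) became 23 and 1 with 50000 bp, 4 and 2 over the library median, 4 and 1 by fold enrichment, and 4 and 0 at a fold of 2. The cause of these moves was not tested beyond what the fewer peaks or wider windows give. Keeping only sites with at most 1 peak per library, an alternative chosen after seeing the data, changed no direction. Also chosen then, the median of the own class in place of that of all sites moved the Seh1cKO sites with an interval wholly below it to 1 (against 0) and the day 1 sites above it to 5 (against 6). No paired analysis was possible because each group has 1 library, and for the same reason none could be left out. Of the 33 sites without a Seh1cKO call 5 fell under the lowest called pileup after scaling to that depth, while 26 reached 7 fragments, the lowest at which a member site was called there. The part of depth in these missing calls was not tested.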
